A study of Mus musculus with 2 samples.

Results

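Pancreatic fibroblasts are described here as 70 of the 1413 cells kept from 2 single-cell RNA libraries of mouse pancreas after pancreatitis. Kept cells had 200 or more detected genes and no more than 20% of their UMIs from mitochondrial genes, a UMI being 1 counted transcript molecule. A kept cell was taken as a fibroblast when Dcn, Col1a1, Col1a2 and Col3a1 summed to at least 3 UMIs, no Pecam1 or Cdh5 UMI was present, and 6 T cell receptor complex genes (Cd3d, Cd3e, Cd3g, Trac, Trbc1 and Trbc2) summed to at most 1. Members were thus selected on measured values of these 12 genes, and differences in those genes against other cells are a description only. Both libraries came from R26[CA]30EYFP mice on the C57Bl/6J background, and the treatment field of the labels reads None for both. In this allele a repeat sits ahead of a yellow fluorescent protein at the Rosa26 locus, and the protein is read only after a change in repeat length. Cells sorted as EYFP positive made one library and cells sorted as EYFP negative made the other, so each group is 1 library and no test between them was possible. The sources used here give neither the animals per library, nor the time after pancreatitis, nor the gates of the sort, and the gene table of 31053 genes holds no EYFP transcript to check the sort. The series title names osteoglycin from inflammatory cancer-associated fibroblasts (iCAF), a secreted proteoglycan encoded by Ogn.

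Fibroblasts make and remodel the collagen-rich matrix of an organ. In many tissues, cells of the outer vessel wall and connective tissue septa carry Pi16, Dpp4 and Ly6c1 and are described as adventitial or progenitor-like, while cells lying within the tissue carry Col15a1 and other basement membrane genes. After pancreatic injury and in pancreatic tumours, fibroblasts are further described as contractile (myCAF, with Acta2 and Tagln) or inflammatory (iCAF, with cytokines and complement). Osteoglycin belongs to the small leucine-rich proteoglycans, as do decorin (Dcn) and lumican (Lum), which bind collagen fibrils.

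The 300-base windows around the annotated starts of Ogn, Pi16 and Igfbp6 are shown because these 3 genes were high in the same fibroblasts below. Each runs from 250 bases before to 50 bases after a start in RefSeq's GRCm38.p6 annotation, on the plus strand. Capitals mark TATAAA on either strand. The Ogn window is chr13:49607765-49608064, the Pi16 window chr17:29318632-29318931 and the Igfbp6 window chr15:102143936-102144235.
Ogn: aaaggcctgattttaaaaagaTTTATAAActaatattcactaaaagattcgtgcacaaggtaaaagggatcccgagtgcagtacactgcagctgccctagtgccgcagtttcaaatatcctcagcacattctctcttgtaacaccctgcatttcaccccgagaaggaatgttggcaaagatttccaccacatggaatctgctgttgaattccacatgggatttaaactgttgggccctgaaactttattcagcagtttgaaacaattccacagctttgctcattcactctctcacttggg
Pi16: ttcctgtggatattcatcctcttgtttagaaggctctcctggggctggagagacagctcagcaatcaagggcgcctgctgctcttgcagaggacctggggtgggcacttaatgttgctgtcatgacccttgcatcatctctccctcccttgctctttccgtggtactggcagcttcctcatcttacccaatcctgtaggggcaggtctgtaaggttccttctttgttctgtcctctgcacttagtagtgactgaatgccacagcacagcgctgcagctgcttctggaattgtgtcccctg
Igfbp6: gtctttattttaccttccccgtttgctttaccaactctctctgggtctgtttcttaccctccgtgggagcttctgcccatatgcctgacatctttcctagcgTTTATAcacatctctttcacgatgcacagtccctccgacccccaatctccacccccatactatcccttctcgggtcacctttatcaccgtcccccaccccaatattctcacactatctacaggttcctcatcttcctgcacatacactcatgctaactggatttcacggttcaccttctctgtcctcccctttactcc
The Ogn window held 2 overlapping matches, one on each strand, that begin 229 and 227 bases before the start. The Igfbp6 window held 1, on the minus strand, 148 bases before it. The Pi16 window held none. Of all 32851 RefSeq mouse windows of this length, 13.6% held TATAAA, as did 5 of 23 windows of 19 adventitial progenitor genes and 1 of 11 windows of 10 parenchymal fibroblast genes. The AP-1 motif TGANTCA was in 7.81% of all windows, in 4 of the 23 and in 0 of the 11. GC content was 42.3% for Ogn, 53.3% for Pi16 and 49.7% for Igfbp6.

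Fibroblasts were 65 of 860 kept EYFP positive cells, or 7.56% (5.88 to 9.53%, exact Clopper-Pearson 95% interval), and 5 of 553 kept EYFP negative cells, or 0.904% (0.294 to 2.1%). These intervals, like every interval here, cover counting error only. The sort set what entered each library, and the depth differed as well: other kept cells had a median of 1027 UMIs in the EYFP positive and 7999.5 in the EYFP negative library. EYFP positive fibroblasts held 177897 UMIs, with a median of 742 per cell (515 to 17297), and EYFP negative fibroblasts 33609, with a median of 9859 (857 to 10974). Most EYFP positive fibroblasts were thus shallow: 40 lay under 1000 UMIs, 14 had 1000 or more but under 5000, and the 11 at 5000 or more gave 71.4% of the UMIs. Of the 5 EYFP negative fibroblasts, the deepest 3 gave 92.1% of the UMIs. The libraries shared 4 cell barcodes, and 0 of them were fibroblasts.

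The threshold fell in a near-empty part of the distribution. In the EYFP positive library 788 kept cells had no UMI of the 4 matrix genes, 7 had 1 and 0 had 2, while the lowest members had 3 (1 cell), 4 (5 cells) and 5 (9 cells). In the EYFP negative library 533 kept cells had 0, 12 had 1 and 1 had 2, and the members began at 7. A pair of EYFP negative cells with sums of 318 and 234 was left out for a single Pecam1 or Cdh5 UMI each. Their Gsn counts of 193 and 228, their Ogn counts of 0 and 0, and the absence of Kdr, Egfl7, Plvap and Flt1 are given here because the EYFP negative group has 5 members. With both allowed, the Ogn fold given below is 4.11.

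**Figure D1:**
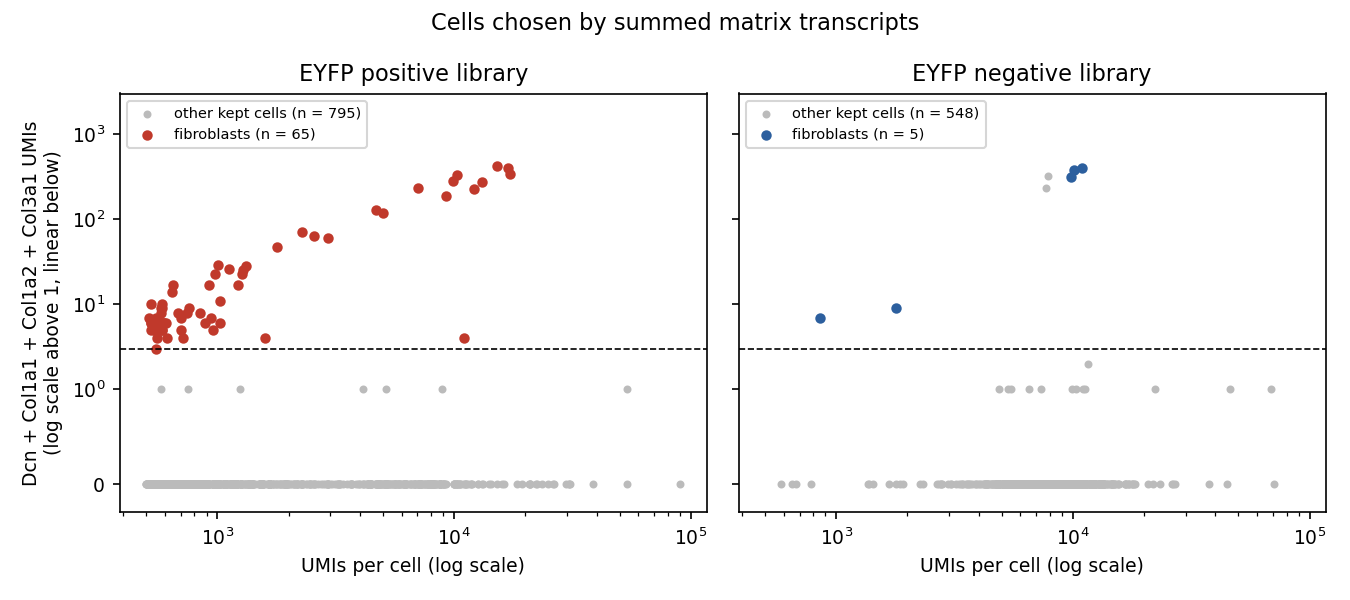
Summed Dcn, Col1a1, Col1a2 and Col3a1 UMIs (vertical axis, log scale above 1) against UMIs per cell (horizontal axis, log scale) for every kept cell of each library. Coloured points are the 65 and 5 fibroblasts, grey points the other kept cells, and the dashed line is the minimum of 3 UMIs. The 2 grey points far above the line are the EYFP negative cells left out for 1 endothelial UMI.

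Nearly all members held fibroblast markers that the rule did not use. Gsn (gelsolin, an actin-severing protein) was detected in 64 of 65 EYFP positive fibroblasts (98.5%), Clec3b (tetranectin) in 83.1%, Mfap5 (a microfibril protein) in 81.5%, Pi16 (a secreted peptidase inhibitor) in 72.3% and Ogn in 67.7%. In T cells of the same library, taken as 218 cells with at least 2 T cell UMIs, Gsn was in 5.96%, Pi16 in 0.459%, and Clec3b, Mfap5 and Ogn in 0 cells, which allows a share with a UMI of up to 1.38% at this depth and does not limit the share expressing the gene. The T cells were the deeper of the pair, with a median of 1669.5 UMIs against 742. At least 2 of these 5 markers were present in 63 of 65 EYFP positive and 4 of 5 EYFP negative fibroblasts. With every cell thinned to 500 UMIs, Ogn was in 47.7% of EYFP positive fibroblasts and Pi16 in 63.1%, so the unthinned shares depend on depth.

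A pair of EYFP positive members had mural rather than fibroblast transcripts. The cell ranked 6 by depth (11030 UMIs) held 113 Myh11, 107 Acta2, 121 Tagln and 6 Rgs5 UMIs, with Dcn at 0 and a matrix sum of 4. The cell ranked 17 (1585 UMIs, 18% mitochondrial) entered on 4 Col3a1 UMIs and held 5 Rgs5 UMIs. Myh11, Acta2 and Tagln mark smooth muscle and pericytes, and outside the first of these cells they summed to 1 Myh11 UMI over all 70 members. Acta2 and Tagln thus came from 1 cell. Both cells are kept below, as the rule places them, and list counts that change without them are given below.

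Transcripts of other lineages were sparse in the fibroblasts but not absent, apart from acinar enzymes and the mural transcripts above. Erythroid genes had 27 UMIs in 23 of 65 EYFP positive and 8 UMIs in 5 of 5 EYFP negative fibroblasts. Endothelial genes outside the rule were in 12.3% of EYFP positive fibroblasts and 10.4% of the other cells of that library. In the EYFP negative library they were in 2 of 5 fibroblasts and 4.38% of other cells. B cell genes without Ebf1 were in 2 of 65 and 3 of 5 fibroblasts. Macrophage genes (10 of 10) and the T cell genes outside the rule (5 of 5) were at 0 in both libraries, and leukocyte genes summed to 5 UMIs in the EYFP positive and 0 in the EYFP negative fibroblasts. Acinar secretory genes made up 1.15% of the UMIs of EYFP positive fibroblasts and were present in 65 of 65 of them, against 4.62% in the other cells of that library. In EYFP negative fibroblasts they made up 0.00595%. The acinar share was 6.18% in the EYFP positive fibroblasts under 1000 UMIs, 1.2% in those from 1000 to under 5000 and 0.118% at 5000 or more. Its part in the results below was not tested. The Ogn fold between libraries was 3.21 with acinar, mitochondrial and ribosomal genes, Lars2 and Gm42418 taken out of the total. That changes the total alone and does not separate the acinar genes from the others. Lars2 (a mitochondrial leucyl-tRNA synthetase) also followed the library: it stood at 4739 CPM (UMIs per 1e+06 UMIs of the summed cells) in EYFP positive fibroblasts, 4916 CPM in the other EYFP positive cells and 208 CPM in EYFP negative fibroblasts.

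Against the other cells of the EYFP positive library, fibroblasts were set apart by genes of the matrix and cell surface. Among genes with at least 30 UMIs over both sums, 1225 of 8910 (13.7%) were at least 2-fold higher in fibroblasts and 1971 (22.1%) at least 2-fold lower. The cells were chosen as fibroblasts, so these folds describe the class. Ogn had 327 UMIs in the fibroblasts and 0 in the other 795 cells, at least 1573-fold higher against a floor of 3 UMIs, and Mfap5 had 257 and 0. Clec3b had 453 and 1, Pi16 431 and 3, Igfbp6 305 and 3, and Cd248 (endosialin) 174 and 1. Fndc1, Pdgfra (the platelet-derived growth factor receptor typical of fibroblasts), Abca8a, Mmp2 (gelatinase A) and Scara5 (a ferritin receptor) had 158, 110, 99, 92 and 89 UMIs in fibroblasts and 0 elsewhere in that library.

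By gene list, all 24 tested adventitial progenitor genes were at least 2-fold higher in fibroblasts than in the other EYFP positive cells. So were 12 of 12 matrix proteases and inhibitors, 10 of 10 elastic fibre and fibulin genes, 7 of 7 complement genes and 9 of 9 iCAF genes. The 6 tested small leucine-rich proteoglycans were all higher too. Some other lists also had lower members. Among them, 10 of 12 parenchymal fibroblast genes were higher and 2 lower. For myCAF genes 6 of 8 were higher and 2 lower, and for cytokines and chemokines 5 of 7 were higher and 2 lower. Within 2-fold were 14 of 20 immediate early and stress genes and 10 of 14 unfolded protein response genes. These shares were near that of all tested genes, of which 5714 of 8910 were within 2-fold. The 8 genes listed for antigen-presenting fibroblasts (class II antigen presentation genes, Cd74, Slpi and Saa3) gave at most 3 UMIs each in the EYFP positive fibroblasts, and none of the 17 cell cycle genes reached 10 UMIs over the fibroblasts of both libraries.

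The 11 EYFP positive fibroblasts with at least 5000 UMIs split into 6 cells with Pi16 and no Mgp, 4 cells with Mgp (matrix Gla protein, a calcification inhibitor) and no Pi16, and the mural cell. This split was made after the values were seen and is a description. Pi16 had 73, 64, 62, 63, 5 and 46 UMIs in the 6 Pi16 cells and 0 in each of the 4 Mgp cells. Mgp had 40, 45, 15 and 11 UMIs in the Mgp cells and 0 in each Pi16 cell. No EYFP positive fibroblast of any depth held both transcripts: 47 of 65 held Pi16, 6 held Mgp and 12 neither.

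Ogn followed the Pi16 cells. It had 72, 71, 33, 33, 13 and 17 UMIs in the 6 Pi16 cells, 13, 0, 3 and 14 in the 4 Mgp cells, and 0 in the mural cell. As levels, the Pi16 cells ranged from 1839 to 4215 CPM (mean 3138 ± 952, SD over cells, n = 6 cells) and the Mgp cells from 0 to 1520 CPM (mean 670 ± 668, n = 4 cells). In the sums Ogn was 4.96-fold higher in Pi16 cells (3.38 to 7.51). It was 1 of 154 genes, of 531 tested (29%), that were at least 2-fold higher in the Pi16 cells. These cells come from 1 library and are not replicates, and their spread from cell to cell was wider than counting error.

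Adventitial progenitor genes were higher in the cells with Pi16. All 18 tested members of that list were at least 2-fold higher in Pi16 than in Mgp cells, where 154 of 531 tested genes (29%) were higher and 80 (15.1%) lower; Pi16 helped to define the groups, so these counts only describe them. Sema3c (a secreted semaphorin) had 147 UMIs in the Pi16 cells and 0 in the Mgp cells, Fn1 (fibronectin) 289 and 2, Igfbp6 193 and 6, and Ly6c1 61 and 0. Dpp4 (a cell surface peptidase used to sort progenitor-like fibroblasts) had 58 and 1, Anxa3 86 and 2, Cd55 (a brake on complement) 76 and 2, and Pcolce2 95 and 1. Clec3b was shared, at 3901 CPM in Pi16 and 1055 CPM in Mgp cells. Il33 (an alarmin cytokine) had 68 UMIs against 2, and Sfrp2 (a Wnt modulator) 37 against 0.

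The Mgp cells had higher levels of the parenchymal list. All 6 tested members, Mgp among them, were at least 2-fold higher in Mgp cells. Col15a1 (a basement membrane zone collagen) had 84 UMIs in the 4 Mgp cells and 3 in the 6 Pi16 cells, Smoc2 (a calcium-binding matrix protein) 71 and 6, Abca8a 86 and 12, and Lpl (lipoprotein lipase) 157 and 57. Basement membrane collagens went the same way, with 193 Col4a1 and 96 Col4a2 UMIs against 21 and 8, as did Apoe with 93 against 2 and Igfbp7 with 115 against 25. Immediate early genes were also higher in Mgp cells, for 9 of 11 tested: Jun stood at 3817 CPM against 531 CPM, Egr1 at 2672 CPM against 643 CPM and Junb at 1684 CPM against 154 CPM. These last genes varied between cells, and Junb was 0, 44, 13 and 18 UMIs in the 4 Mgp cells.

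**Figure D2:**
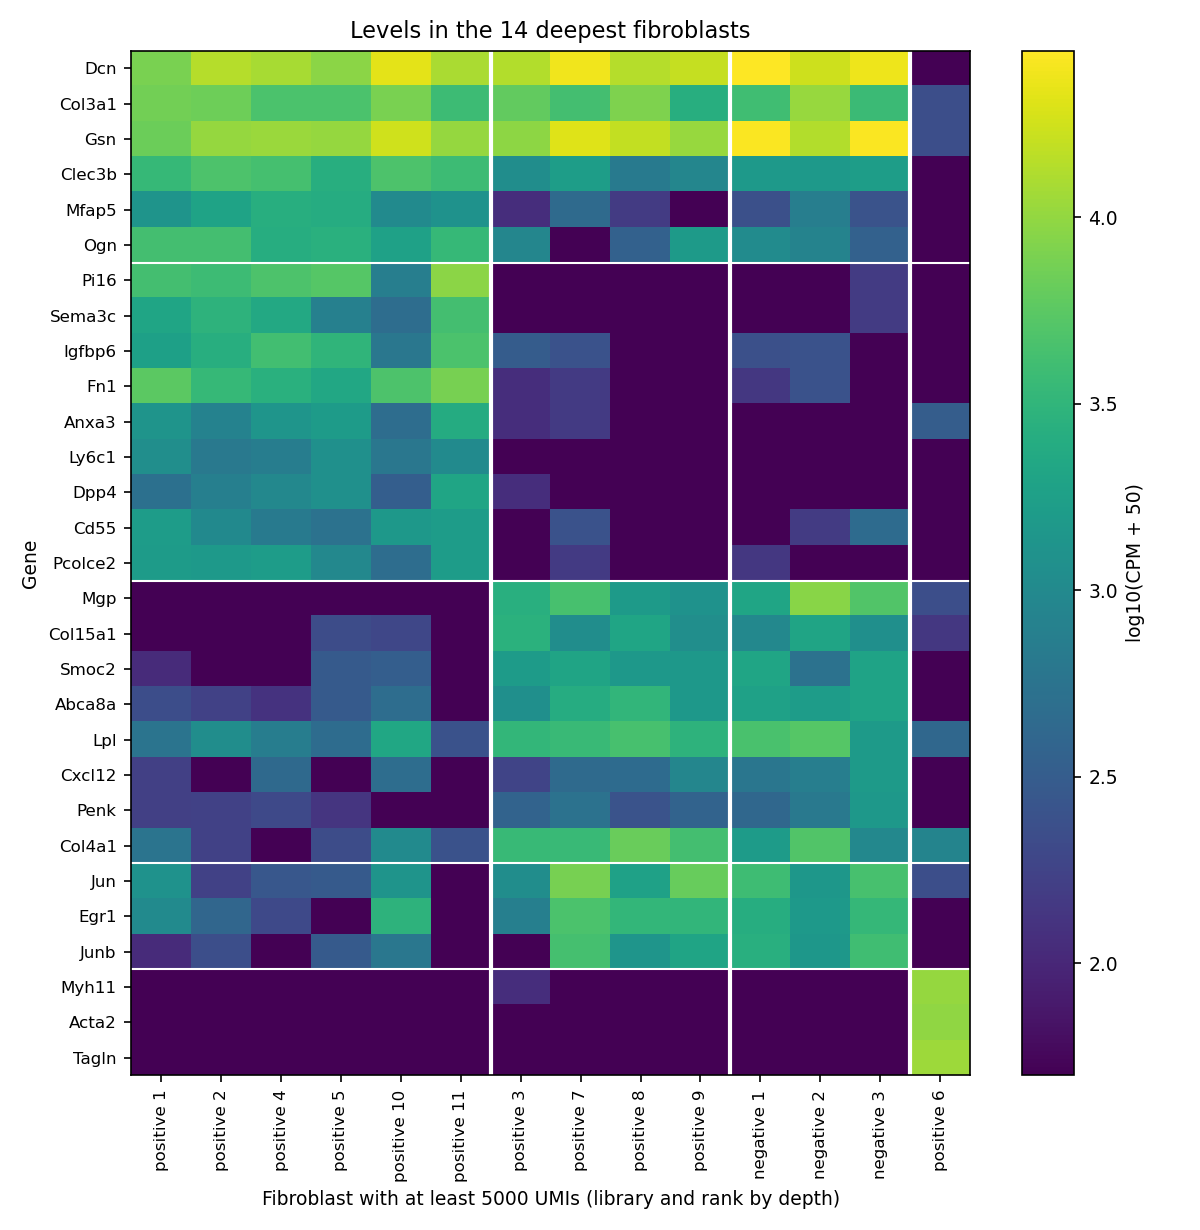
Levels of 29 genes (vertical axis) in the 14 members with at least 5000 UMIs (horizontal axis, named by library and rank of depth), coloured by log10(CPM + 50). From left to right, white lines separate 6 Pi16 cells, 4 Mgp cells, 3 EYFP negative cells and the mural cell. Ogn and the block from Pi16 to Pcolce2 have their highest levels in the first group. Pi16 and Sema3c are near 0 in the Mgp and EYFP negative cells, where Ogn is lower but reaches 1520 CPM.

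All 3 deep EYFP negative fibroblasts held Mgp and next to no Pi16. They had 22, 91 and 49 Mgp UMIs, 0, 0 and 1 Pi16 UMIs, and 11, 8 and 3 Ogn UMIs. Sema3c had 0, 0 and 1 UMIs, and Col15a1 10, 20 and 11. With 3 such cells, a fibroblast with the Pi16 pattern was not detectable unless common. Of the 2 shallow EYFP negative fibroblasts, the one with 857 UMIs held 1 Pi16 and 1 Mgp UMI and the other held neither. The 2 EYFP negative cells left out for 1 endothelial UMI differed. The one with 7817 UMIs held 27 Mgp and 0 Pi16 UMIs, and the one with 7734 UMIs held 0 of each.

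Shallow EYFP positive fibroblasts held Pi16 and Ogn but no Mgp. Of the 40 cells under 1000 UMIs, 30 held Pi16, 25 held Ogn and 0 held Mgp. Their summed Pi16 level was 2447 CPM, against 4376 CPM in the deep Pi16 cells and 0 in the deep Mgp cells, and their Ogn level was 1398 CPM, against 3342 CPM and 674 CPM. Col15a1 had 0 UMIs and Smoc2 1 in the shallow cells.

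**Figure D3:**
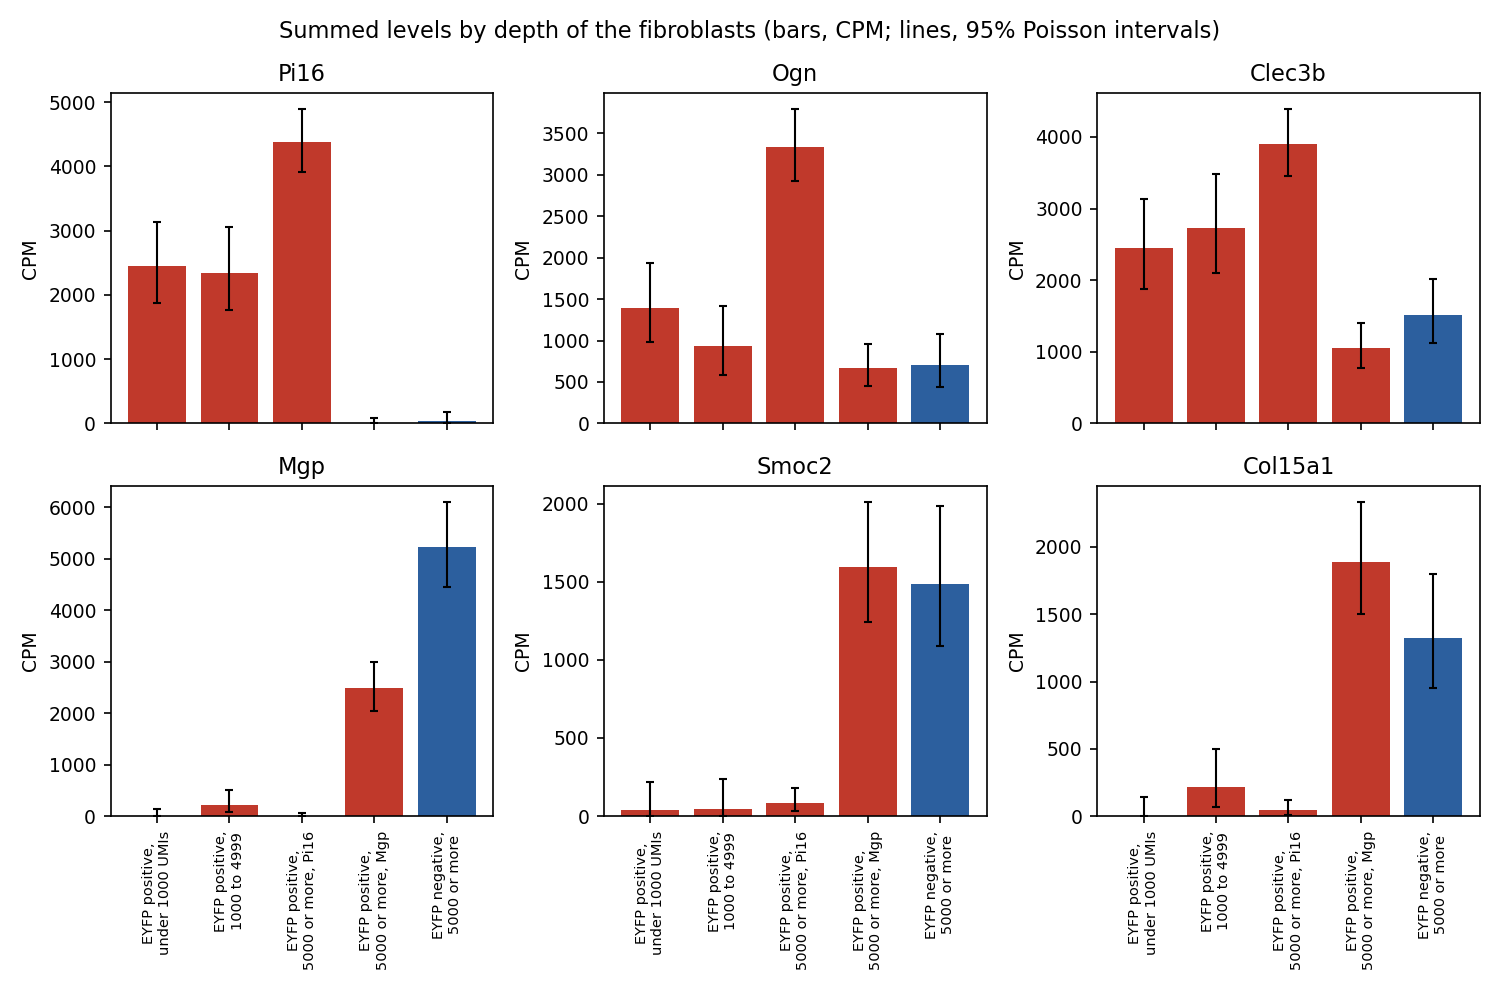
Summed level (vertical axis, CPM) of 6 genes in EYFP positive fibroblasts by depth and pattern, and in the deep EYFP negative fibroblasts (horizontal axis). The 2 mural cells are left out, and lines are 95% Poisson intervals that cover counting error only. The EYFP positive cells under 1000 UMIs have Pi16 at 2447 CPM and Mgp at 0.

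Between libraries, EYFP positive fibroblasts had more of the adventitial genes and less of the parenchymal and immediate early genes than EYFP negative fibroblasts. Of 1031 genes with at least 30 UMIs over both sums, 188 (18.2%) were at least 2-fold higher in EYFP positive fibroblasts and 130 (12.6%) at least 2-fold lower. Because the EYFP positive sum is much the larger, the minimum removes more of the genes that are low in it, so these 2 counts are not to be set against each other. For Pi16 there were 431 UMIs against 2, a fold of 40.7 (11.2 to 337), and for Sema3c 190 against 1, a fold of 35.9 (6.37 to 1425). Fn1 was 23.2-fold higher (7.87 to 113) and Igfbp6 14.4-fold higher (5.57 to 53.2). With no UMI in the EYFP negative fibroblasts, Anxa3 was at least 8.75-fold and Ly6c1 at least 6.68-fold higher against the floor of 3 UMIs. Cd248 (32.9-fold) and Pcolce2 (26.4-fold) rested on 1 EYFP negative UMI each. With each cell weighted equally, by the mean of CPM over cells, the fold of Pi16 was 9.44 and that of Mgp 0.0493.

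Ogn stood at 1838 CPM in EYFP positive fibroblasts (327 UMIs) and 655 CPM in EYFP negative fibroblasts (22 UMIs), a fold of 2.81 (1.82 to 4.54). Restricted to the deep cells with Mgp, the fold was 0.948 (0.529 to 1.72), from 30 UMIs in 4 cells against 22 in 3. That restriction removed the 6 deep Pi16 cells, in which Ogn was highest, so the value describes Mgp cells only. In 1 random thinning to 1000 UMIs per cell the Ogn fold was 1.28, from 32 against 4 UMIs, and another draw gave 31 against 3. Thinning left out the 40 EYFP positive fibroblasts and 1 EYFP negative fibroblast under 1000 UMIs. The change from 2.81 is thus not one of depth alone. The intervals of the Mgp cells and of the thinned cells span 1 (0.454 to 4.98 after thinning), so no difference in Ogn was detectable in either set.

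Mgp was lower in EYFP positive fibroblasts, at 663 CPM against 4850 CPM, a fold of 0.137 (0.107 to 0.174). Zfp36 (an mRNA decay factor) had a fold of 0.120, Pcolce (a collagen processing enhancer) 0.163, Btg2 0.174, Cyr61 0.144, Steap4 0.144, Cebpd 0.17, Bgn (biglycan) 0.222, Junb 0.231, Celf2 0.247 and Cygb (cytoglobin, known from stellate cells) 0.25. Among the Mgp cells alone, 4 of the other 10 genes were still at least 2-fold lower: Zfp36 at 0.316, Pcolce at 0.372, Steap4 at 0.364 and Celf2 at 0.261. Mgp itself stood at 0.476, a description only, since these cells were chosen for it. Cebpd had too few UMIs there to be called, and its fold was 0.479 without the deepest fibroblast of each library.

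By list, the median log2 fold was 2.85 for adventitial progenitor genes (1.93 with genes at 0 set to their bound), with 16 of 22 tested members at least 2-fold higher and 0 lower. It was -1.63 for parenchymal fibroblast genes, with 9 of 10 lower, and -1.27 for immediate early and stress genes, with 10 of 15 lower. Over all genes with at least 10 UMIs it was -0.14. Klf4 went the other way among the immediate early genes, with 84 UMIs against 1, but its fold of 15.9 was 1.93 when the 2 EYFP negative cells with 1 endothelial UMI were allowed. The iCAF list had a median of 0.48: Ogn, Ly6c1 and Col14a1 (3.80-fold) were higher, Cxcl12 (0.25) was lower, Il6 had 0 UMIs in both libraries and C3 had a fold of 0.863 (0.648 to 1.17), or 0.521 without the deepest fibroblast of each library. The myCAF list had a median of 2.12 with 5 of 6 higher, and without the 2 mural cells it was 0.42 with 1 of 2 higher and 1 lower. Without those cells 18 of 22 adventitial genes were higher, 10 of 10 parenchymal genes lower and 4 of 9 iCAF genes higher, with Dpt past 2-fold at 2.14.

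Most collagens were within 2-fold, as were most tested genes (713 of 1031). Col1a1, Col1a2, Col3a1 and Dcn chose the cells in both libraries, so their values are a description. Of 10 tested fibrillar and beaded collagens 8 were within 2-fold, among them Col1a1 (0.724), Col1a2 (0.792) and Col3a1 (0.893, 0.764 to 1.05). Dcn had a fold of 0.516 and Lum 0.567, and among the 7 tested small leucine-rich proteoglycans 2 were higher (Ogn and Aspn) and 3 lower (Bgn, Prelp and Ecm2). Aspn had 47 UMIs against 4, with an interval that spans 1 (0.812 to 8.48), and its fold was 1.88 without the 2 mural cells, where Ogn was the 1 proteoglycan higher of 6 tested and Bgn and Prelp were lower. Timp2 (an inhibitor of matrix proteases) was 4.50-fold higher (2.85 to 7.55). Among secreted cytokines Il33 was 7.65-fold higher (2.05 to 64.3), with 2 EYFP negative UMIs, and Ccl11 (eotaxin) had a fold of 0.484 (0.354 to 0.669), or 0.521 without the mural cells. The insulin-like growth factor binding proteins split, with Igfbp6 and Igfbp5 (3.83, but 0.941 by the mean of CPM over cells) higher, Igfbp7 (0.463) lower and Igfbp4 at 0.536.

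Other lists were divided between higher and lower members. Over all 1031 tested genes 18.2% were higher and 12.6% lower, so 1 or 2 called members do not set a list of 8 apart. Of 10 tested elastic fibre genes, 4 were higher, namely Mfap5 (4.05-fold), Efemp1 (a fibulin, 3.82-fold), Fbn1 (2.71-fold) and Fbln5, and Fbln1 was lower, with 27 UMIs against 24. Of 11 tested growth factor and cytokine receptors, 4 were higher, among them Tgfbr2 (a transforming growth factor beta receptor) with 103 UMIs against 7 and Fgfr1 with 44 against 3. Lifr (the leukemia inhibitory factor receptor) with 30 against 22, Eng with 19 against 17 and Il11ra1 with 30 against 14 were lower. Of 8 tested transcription factors 1 was higher, Osr1 with 35 UMIs against 2, and 2 were lower, among them Nfib with 98 against 41. Among 12 matrix proteases and inhibitors, Timp2 and Mmp14 were higher, while Mmp2, Adamts1, Htra3 and Serpine2 were lower. Basement membrane genes Hspg2 (perlecan) and Lama2 were lower and Lama4 higher, among 8 tested.

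Among the deep Mgp cells alone, 4 EYFP positive against 3 EYFP negative, fewer genes passed 2-fold, and fewer could be tested. Choosing cells by Mgp left out all 6 deep Pi16 cells of the EYFP positive library. Differences carried by those cells could not appear here, so the values describe the chosen cells alone. Of 343 tested genes 20 (5.83%) were at least 2-fold higher and 33 (9.62%) at least 2-fold lower. The adventitial list had a median log2 fold of -0.52, with 0 of 4 tested members called, the parenchymal list -0.10, with 3 of 10 lower, and the immediate early list -0.27, with 2 of 12 lower. Smoc2 had a fold of 1.07, Lpl 0.933 and Jun 1.19. The 3 parenchymal genes still lower were Penk (0.434), Cxcl12 (0.447) and Mgp, by which the cells were chosen. With so few cells, a cell or 2 can set any of these values.

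**Figure D4:**
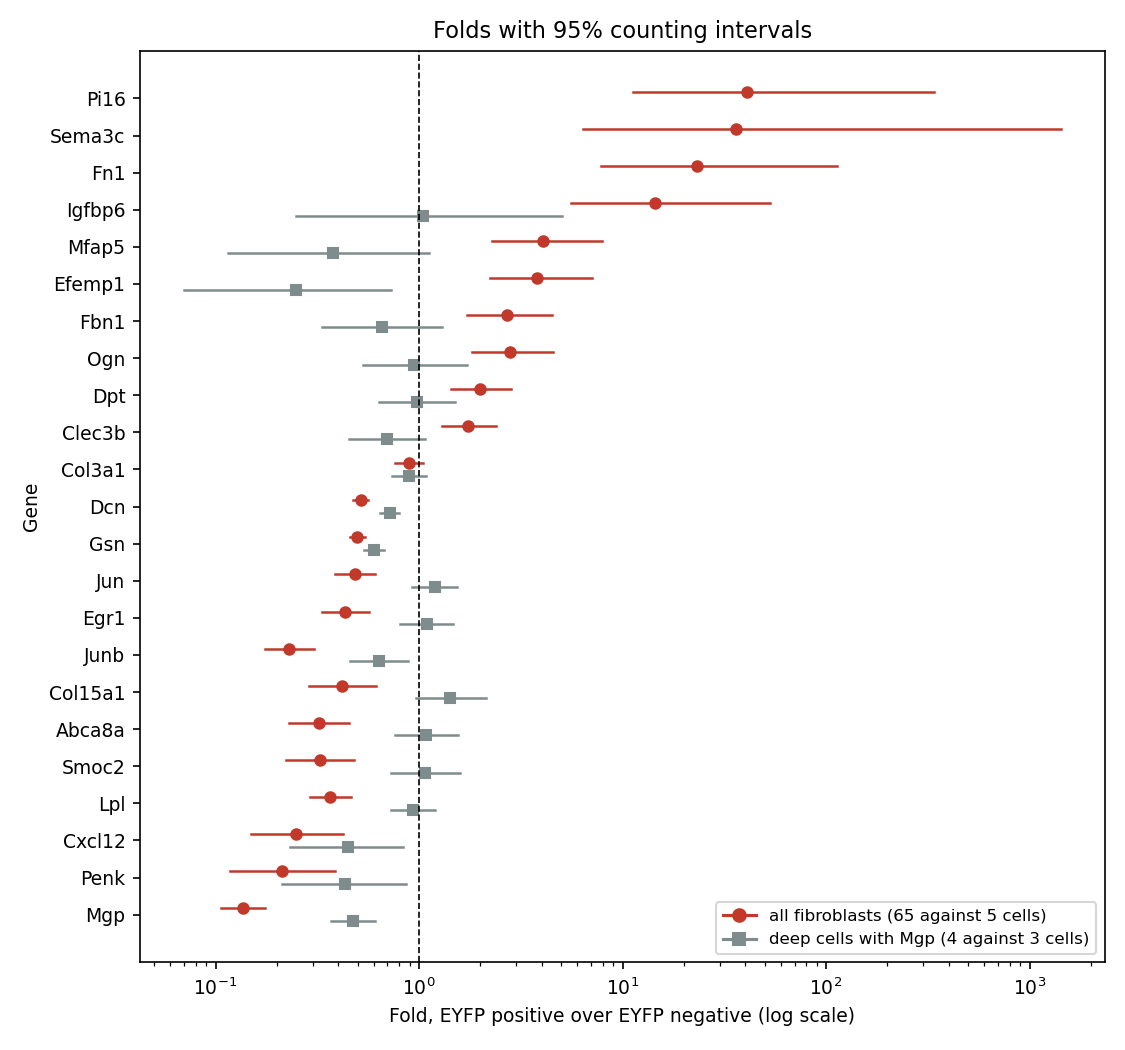
Fold of EYFP positive over EYFP negative fibroblasts (horizontal axis, log scale) for 23 genes (vertical axis), in all fibroblasts (red circles) and in deep cells with Mgp (grey squares), with 95% intervals that cover counting error only. The red values run from 40.7 for Pi16 to 0.137 for Mgp, and the grey values of Ogn, Jun and Smoc2 lie near 1. Genes too sparse in the Mgp cells have no square, and the grey values leave out the deep Pi16 cells.

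Across the 14 deep members, the CPM of each of 413 genes (50 UMIs or more) was correlated with that of Ogn by Spearman's rho. Adamts5 (an aggrecan-cleaving protease) came first with a rho of 0.878, followed by Fbn1 (fibrillin) at 0.854, Ly6c1 and Smpd3 at 0.841, Rpl41 at 0.836, Dpp4 at 0.829, Tgfbr2 at 0.818 and Sema3c at 0.811. At the other end stood H3f3b at -0.849 and Mgp at -0.790. The cells share 2 libraries and 2 patterns, so these values describe the split above, and without the mural cell the rho of Adamts5 was 0.852. Over the EYFP positive cells alone, again without the mural cell, Sema3c (0.882) and Rpl41 (0.879) stood above Adamts5 (0.83).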

How the data were processed

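UMI counts were used as the authors deposited them, as whole-number counts per gene and barcode. Per the submitters' processing notes they came from Cell Ranger 2.1.0 with GRCh38, whereas the file headers give version 3.1.0 and mouse identifiers, so the genome build behind the counts is left as unknown. The labels' protocols name a 5′ kit. Members, gene lists and the named-gene rule (markers, the leading members of each list, and the 12 genes each way and 20 against other cells whose interval lay farthest from 1) were chosen with earlier results of these data known; a few genes picked by this rule are left unreported. UMIs were summed per library and scaled to CPM. Folds carry exact conditional binomial 95% intervals; with a sum at 0, a floor of 3 UMIs per sum was used. Genes with 30 UMIs or more were called at 2-fold; list medians used genes with 10 or more and a pseudocount of 0.5 UMI. The fold script was tested on simulated data. Its first pass mark, set over every changed gene, was missed because many lowered genes fell under 30 UMIs; the mark was then changed to recovery among tested genes, which was met. Doublets were kept; Scrublet marked 2 and 5 cells, 0 of them fibroblasts. Analyses used Python 3.11.15, numpy 2.4.6, scipy 1.17.1, pandas 2.3.3 and scanpy 1.11.5. Alternatives changed the rule, cell filter, total, weighting, depth and gene minimum. No library had a replicate.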

Additional observations from a re-analysis of the deposited data

Results flagged for a closer look

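The barcodes that failed the cell filter were not used, yet they held some fibroblast transcripts. The 857 such EYFP positive barcodes held 22 summed Dcn, Col1a1, Col1a2 and Col3a1 UMIs, and 2 of them met the gene rule for fibroblasts. The 192 such EYFP negative barcodes held 5 of these UMIs, and 1 of them met the rule. Both sums lie above the 3 counts that a count of 0 allows.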

How the results depend on the processing

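No paired analysis was possible because each group is 1 library, and no library could be left out. Fibroblasts in the EYFP positive library were 5.81% at a matrix sum of at least 6 UMIs, 28 cells or 3.26% at 10, 21 cells under a filter of 500 genes and 10% mitochondrial UMIs, and 3.90% of every barcode; at 10 UMIs 3 EYFP negative cells were left. With a minimum of 10 UMIs per gene, 521 genes were higher and 557 lower in EYFP positive fibroblasts, and 1971 were higher in fibroblasts than in other cells. With the mean of CPM over cells, 239 genes were lower between libraries and 3348 lower than in other cells, the parenchymal median was -2.43, and the Igfbp5 fold was 0.941. With acinar, mitochondrial and ribosomal genes, Lars2 and Gm42418 taken out of the total, the median of all genes was 0.0557 in place of -0.14. Thinning to 1000 UMIs, in 1 random draw, left 49 genes higher and 9 lower, with medians of 0.25 for all genes, 2.57 for iCAF genes and 0.0125 for collagens, and folds of 1.28 for Ogn, 1.28 for Celf2, 1.39 for Lum, 1.12 for Col1a1 and 2.75 for Col1a2. These rest on few EYFP negative UMIs and depend on the draw: another draw gave Lum 24 against 7 UMIs, at 960 CPM and 1750 CPM, the direction of the reported fold. Restricting to deep Mgp cells, an alternative chosen after seeing the data like the removal of mural cells and the allowance of 1 endothelial UMI, left 20 genes higher and 33 lower, with medians of -0.52 for adventitial, -0.10 for parenchymal, 0.0034 for collagen and -0.27 for immediate early genes. Folds there were 0.948 for Ogn, 0.278 for Cd55, 0.695 for Clec3b, 0.379 for Mfap5, 0.973 for Dpt, 0.248 for Efemp1, 0.660 for Fbn1, 0.695 for Igfbp5, 0.506 for Col14a1 and 0.616 for Adamts5. They were 1.07 for Smoc2, 1.42 for Col15a1, 1.09 for Abca8a, 1.19 for Jun, 1.02 for Fos, 1.09 for Egr1, 1.07 for Igfbp4, 1.07 for Igfbp7 and 1.02 for Col1a2. Of 778 fold values for 58 named genes under these alternatives, 667 lay within the counting interval of the reported fold (or, as lower bounds, on its side of 1). A further 88 moved outside it and 23 reversed. The reversed values belonged to 21 of the 58 genes. Over genes and lists together, 21 values reversed in the deep Mgp cells and 6 after thinning. The mean of CPM and the changed total reversed 1 each. The Mgp set holds none of the deep Pi16 cells. The thinned set holds none of the 40 EYFP positive fibroblasts under 1000 UMIs. Both sets also hold fewer cells or UMIs, and the cause of the changes was not tested. The 5 EYFP negative fibroblasts limit every comparison between libraries.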
